A study of Mus musculus with 4 samples.

Results

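The genes described here are 9 transcripts that mark mouse pluripotent cells: the developmental pluripotency-associated genes Dppa2, Dppa3, Dppa4 and Dppa5a, the RNA-binding protein genes Lin28a, Lin28b, Trim71 and L1td1, and Tcl1. They were chosen by symbol, and all 9 were found among the 35976 gene rows of the deposited count table. The table held 4 mRNA-seq libraries from mouse E14 embryonic stem cells, a line whose strain is given as "12910la". The 2 control libraries are labelled wild type, and the 2 knockdown libraries came from cells in which a short hairpin RNA in the pSuper puro vector was directed against the repeat-derived RNA Lx8-SINE B2. One protocol is attached to all 4 samples: growth on gelatin in medium with FBS, mLIF and β-mercaptoethanol, transfection with 1000 ng of vector, and, from 24 h later, 3 days in puromycin at 1 µg/ml. The vector of the controls is not stated separately. The word batch stands only in the knockdown titles, and such a batch cannot be told apart from the knockdown. Whether a group's libraries were separate cultures is not said, and the p-values therefore measure only how far these libraries spread, which may be technical.

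DPPA2 and DPPA4 are paired SAP-domain proteins that bind chromatin and prime genes of the early embryo, among them the Dux and Zscan4 genes. DPPA3, also called Stella, keeps the methylation factor UHRF1 from chromatin, and DPPA5A is an RNA-binding protein with a KH domain. LIN28A and LIN28B bind the precursors of let-7, a family of microRNAs that rises as cells differentiate, and have them tailed with uridines and destroyed. TRIM71, an RNA-binding TRIM-NHL protein, represses mRNAs such as Cdkn1a. L1TD1 is an RNA-binding protein that arose from the LINE-1 retrotransposon, and TCL1 is a coactivator of the kinase AKT.

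The let-7 family is the hub that links Lin28a, Lin28b and Trim71, so its sequences are shown first. The seed, bases 2 to 8 of the mature strand, is in capitals. All 9 mature sequences of the family in the RefSeq table (GRCm38.p6) share the seed GAGGUAG, and 3 of them show how the remainder varies:
mmu-let-7a-5p: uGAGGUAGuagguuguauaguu
mmu-let-7d-5p: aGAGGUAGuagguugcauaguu
mmu-let-7g-5p: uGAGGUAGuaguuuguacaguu
LIN28 proteins recognise the letters GGAG in let-7 precursors, shown in capitals in the hairpin of let-7g (chr9:106178840-106178927, plus strand). The hairpin of let-7b (chr15:85707319-85707403, plus strand) has no such letters:
Mirlet7g: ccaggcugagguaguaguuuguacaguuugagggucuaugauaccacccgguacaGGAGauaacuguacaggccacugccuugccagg
Mirlet7b: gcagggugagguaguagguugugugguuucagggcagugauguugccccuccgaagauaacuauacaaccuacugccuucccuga
Of the 12 let-7 family hairpins, 9 (75.0%) held GGAG on the transcript strand at any position, against 44.5% of the 1005 mouse hairpins in the table, whose median length was 79 bases against 93. The level of let-7 itself was not measured: the 11 rows named Mirlet7 held 9 counts over all 4 libraries, and 8 of those rows were at 0.

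The complement of the seed, CTACCTC, was searched on the transcript strand of the 3′ UTR of each gene (GENCODE M21, GRCm38, principal transcript). Only Lin28a, Lin28b and Trim71 held it, among these 9 genes. One match per gene is shown with its genomic position, which is exonic and within the 3′ UTR, and with the match in capitals. The A that follows each of these matches makes the 8-base form.
Lin28a, chr4:134005190-134005196, minus strand: agcctgttgaaCTACCTCattt
Lin28b, chr10:45381023-45381029, minus strand: gggcgggaagtCTACCTCatgc
Trim71, chr9:114512473-114512479, minus strand: ttgcctaagtcCTACCTCagct
Lin28a held 2 matches in 2775 bases, both of the 8-base form. Lin28b held 4 in 4445 bases, of which 1 was of that form, and Trim71 held 4 in 5512 bases, all of that form. Among the 13549 tested genes with an annotated 3′ UTR, 9.59% held at least 1 match, 0.177% held at least 2 of the 8-base form and 0.0738% held at least 4 matches of either form. Matches came with long 3′ UTRs, at a median of 2179 bases for genes with a match against 897 for genes without. A match is a description of the letters and not a measured site.

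**Figure D1:**
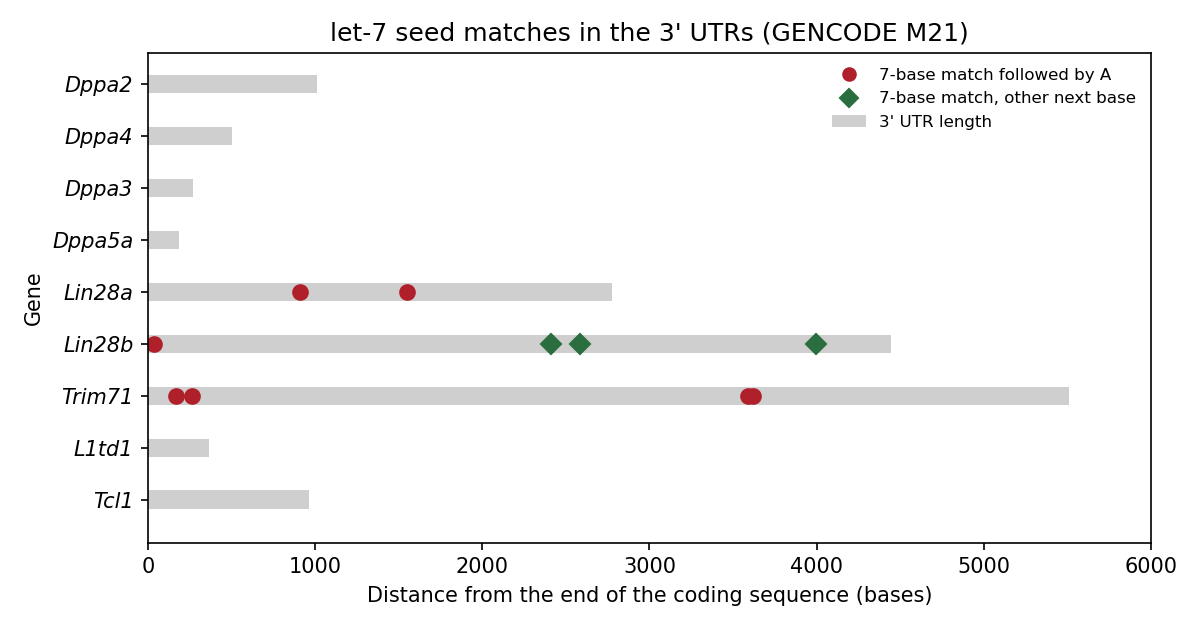
Grey bars give the 3′ UTR length of each gene in bases from the end of the coding sequence, circles mark let-7 seed matches followed by A, and diamonds mark the other matches. Lin28a has 2 matches, Lin28b and Trim71 have 4 each, and the other genes have none.

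None of the 9 genes passed the test between knockdown and control, edgeR's quasi-likelihood test with a threshold of 0.05 on Benjamini-Hochberg values taken over the 16209 genes tested. All 9 passed the filter on low counts. The background was 1.43% of tested genes called in either direction. At an unadjusted p below 0.05 the number was 3 of 9 (Tcl1, Dppa5a and Lin28a), against 19.6% of all tested genes. All 3 were lower, where 8.58% of tested genes were lower at that p. DESeq2 called 2 of the 9 (background 6.83%), limma-voom called 0 (1.49%) and the edgeR likelihood ratio test called 2 (8.08%). In DESeq2 and in the likelihood ratio test these were Tcl1 and Dppa5a, each lower. With no low-count filter 3 were called (6.47%) and with the replicate number as a block 1, Tcl1 (4.05%). In the same 3 genes both knockdown libraries lay below both controls. This is 3 of 9, where 24.6% of tested genes lay apart in this direction. No gene of the 9 lay apart in the other direction, where the background was 27.3% (51.9% in either direction). The median log2 fold change was -0.13 over the 9 genes and 0.01 over all tested genes. In bulk RNA, fewer cells that express a gene and less RNA per cell cannot be told apart.

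**Figure D2:**
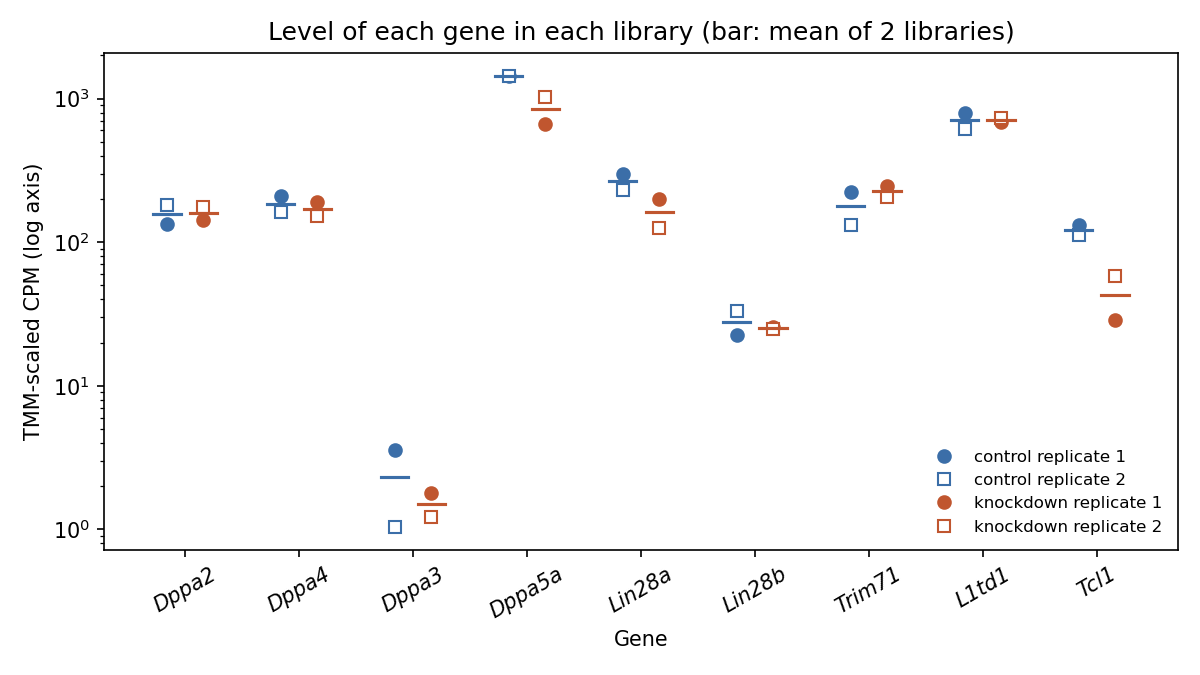
TMM-scaled CPM on a log axis for each gene in each library, with filled circles for replicate 1, open squares for replicate 2 and a bar at the mean of each group. The knockdown points of Tcl1, Dppa5a and Lin28a lie below both control points, and those of the other 6 genes overlap the controls.

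Tcl1 showed the largest difference of the 9 genes. The controls had 131 and 112 CPM, against 28.5 and 57.9 CPM in the knockdown libraries, from 2484, 2159, 545 and 952 counts. CPM, counts scaled for library depth, were computed with TMM library sizes. Both knockdown libraries were low, and replicate 1 was the lower of them. The means were 122 ± 13.6 and 43.2 ± 20.8 CPM (SD, n = 2 each), a difference of 2.82-fold. On the log2 scale this was -1.49 (SE 0.31, 95% interval -2.22 to -0.77, edgeR adjusted p = 0.0593). It lay on either side of the threshold depending on the fit: the adjusted p was 0.000232 with DESeq2, 0.000735 with the edgeR likelihood ratio test and 0.00534 without knockdown replicate 2 (log2 fold change -2.09, background 0.9% called). The other 3 fits that left out a library gave -1.66 to -1.08 and did not call it. Over all 14 alternatives the adjusted p ran from 1.23e-08 to 0.103. The gene lies on chromosome 12 from 105216750 to 105222793 (minus strand, GENCODE M21), encodes 116 residues, and shared no stretch of 50 bases with the transcript of another gene.

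The relatives of Tcl1 were nearly silent. Of the neighbouring genes Tcl1b1 to Tcl1b5, Tcl1b1 and Tcl1b5 were at 0 counts in every library. For Tcl1b4 there were 6 and 6 control counts against 3 and 4 knockdown counts, and none of the 5 passed the filter. Mtcp1, the remaining family member, was at 3.43 and 4.36 CPM in the controls and 2.46 and 2.31 CPM in the knockdown libraries, a log2 difference of -0.71 (edgeR adjusted p = 0.397).

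In the AKT pathway, which TCL1 coactivates, 1 of 17 tested genes rose, where 0.876% of tested genes were called higher, and 0 fell. Their log2 fold changes had a median of 0.18, against 0.01 over all tested genes, and 6 of the 17 lay apart upwards and 0 downwards, where 27.3% and 24.6% of all tested genes did. Foxo3, a transcription factor gene whose protein AKT keeps out of the nucleus, was at 166 and 160 CPM in the controls and 374 and 300 CPM in the knockdown libraries. The log2 fold change of Foxo3 was 1.05 (SE 0.18, edgeR adjusted p = 0.043). This call was lost with DESeq2 size factors or upper quartile scaling in edgeR (adjusted p = 0.0511 and 0.0501), and without control replicate 2 (0.97), knockdown replicate 1 (0.88) or knockdown replicate 2 (1.2, each a log2 fold change). Among its alternatives that kept all 4 libraries, the adjusted p ran from 6.73e-05 with no low-count filter to 0.0511 with DESeq2 size factors in edgeR.

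Dppa5a was the most abundant of the 9 genes, and its controls were nearly equal. The controls had 1437 and 1446 CPM against 664 and 1021 CPM in the knockdown libraries. Both knockdown libraries were lower, and they differed from each other far more than the controls did, with coefficients of variation of 30.0% and 0.47%. The means of 1442 ± 6.77 and 843 ± 253 CPM (SD, n = 2 each) differed by 1.71-fold. On the log2 scale the difference was -0.77 (SE 0.24, 95% interval -1.32 to -0.23, edgeR adjusted p = 0.13). It was between -1.12 and -0.50 with a library left out. DESeq2 called it (adjusted p = 0.0256), and the adjusted p over its 14 alternatives ran from 0.00375 to 0.613. Dppa5a lies on chromosome 9 from 78367052 to 78368177 (minus strand) and shares sequence with other genes: 38.6% of its 50-base stretches also occur in transcripts of 9 other genes, among them Dppa5b and Dppa5c. Whether multi-mapping reads were counted is not given in the sources used here, so its count is uncertain to that extent. Of those 9 genes, 2 had rows in the table, with 6.08 to 11.7 CPM in sum per library.

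Dppa2 and Dppa4, neighbours on chromosome 16 (48303908 to 48319723 and 48283733 to 48294237, plus strand), had knockdown levels within or near those of the controls. Dppa2 was at 133 and 182 CPM in the controls and 144 and 176 CPM in the knockdown libraries. Dppa4 was at 209 and 161 CPM in the controls and 189 and 151 CPM in the knockdown libraries. In each group the replicate 2 library had more Dppa2 and less Dppa4 than the replicate 1 library, so the ratio of their CPM per kilobase of exon was 0.433 and 0.765 for the controls against 0.515 and 0.790 for the knockdown libraries. The log2 fold change was 0.02 for Dppa2 (95% interval -0.46 to 0.51, edgeR adjusted p = 0.968) and -0.12 for Dppa4 (95% interval -0.59 to 0.35, edgeR adjusted p = 0.792). The sign was not fixed for either gene, since it turned when single libraries were left out and, for Dppa2, with upper quartile scaling. Other annotated genes share sequence with both, with 29.1% of the 50-base stretches of Dppa2 and 35.9% of those of Dppa4 found in transcripts of other genes.

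Genes that need DPPA2 and DPPA4 differed widely between the 2 controls. Summed over 12 such genes, the level was 87.3 and 987 CPM in the controls and 333 and 399 CPM in the knockdown libraries. Zscan4f and Zscan4c, genes of the early embryo and the most abundant of them, were at 19.2 and 16.7 CPM in control replicate 1 and at 386 and 294 CPM in control replicate 2. The knockdown libraries had 101 and 115 CPM of Zscan4f and 85.3 and 113 CPM of Zscan4c. Of 10 tested genes 0 were called, and the median log2 fold change of 0.06 became 2.56 without control replicate 2 and -0.60 without control replicate 1. The Zscan4 copies are near-identical, so their separate values are uncertain. In control replicates 1 and 2, Dppa2 was at 133 and 182 CPM and Dppa4 at 209 and 161 CPM. A link between these levels and those of the 12 genes was not tested.

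Dppa3 was the least abundant of the 9 genes and the least precisely measured. Its counts were 68 and 20 for the controls against 34 and 20 for the knockdown libraries, which are 3.59, 1.04, 1.78 and 1.22 CPM. Control replicate 1 was the highest and control replicate 2 the lowest, so the knockdown libraries lay between the controls. The log2 fold change of -0.62 (SE 0.65, 95% interval -2.11 to 0.87, edgeR adjusted p = 0.643) was 0.53 without control replicate 1 and -1.30 without control replicate 2. A difference was not detectable at this depth and spread. The gene lies on chromosome 6 from 122626410 to 122630272 (plus strand).

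The DNA methylation factors beside which DPPA3 acts had 0 of 10 members called. Their median log2 fold change was -0.07, with 2 members apart upwards and 3 downwards (27.3% and 24.6% of all tested genes). Those apart upwards, named after their values were seen, were Tet3 (log2 fold change 0.77, edgeR adjusted p = 0.253) and Zfp57 (0.21, edgeR adjusted p = 0.567). Trim28, a corepressor gene that protects imprints, was at 2461 and 1890 CPM in the controls and 2131 and 1901 CPM in the knockdown libraries. Tet1, which encodes a methylcytosine oxidase, was at 986 and 1155 CPM in the controls and 945 and 821 CPM in the knockdown libraries, -0.28 on the log2 scale (edgeR adjusted p = 0.469). Uhrf1, the partner gene of Dppa3, and the methyltransferase gene Dnmt3a were named after their values were seen. Uhrf1 was at 737 and 507 CPM in the controls and 406 and 354 CPM in the knockdown libraries, -0.71 on the log2 scale (edgeR adjusted p = 0.138). Dnmt3a was at 343 and 261 CPM in the controls and 203 and 171 CPM in the knockdown libraries, -0.69 on the log2 scale (edgeR adjusted p = 0.118). DESeq2 called both, with adjusted p-values of 0.0448 and 0.0388, and called 6.83% of all tested genes. Control replicate 1 was the higher control for both genes. Without control replicate 2 the log2 fold changes were -1.01 and -0.93, and without control replicate 1 they were -0.42 and -0.48. Over their alternatives the adjusted p ran from 0.0113 to 0.611 for Uhrf1 and from 0.0158 to 0.611 for Dnmt3a.

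Lin28a was far more abundant than its paralog Lin28b. Lin28a was at 300 and 231 CPM in the controls and 199 and 126 CPM in the knockdown libraries. The knockdown libraries lay below both controls, and replicate 2 was the lower of them. The means of 265 ± 48.8 and 162 ± 51.3 CPM (SD, n = 2 each) differed by 1.63-fold, or -0.71 on the log2 scale (SE 0.25, 95% interval -1.29 to -0.13, edgeR adjusted p = 0.175). It was -0.42 without knockdown replicate 2 and -1.08 without knockdown replicate 1. Lin28b was at 22.5 and 33.0 CPM in the controls and 25.8 and 24.9 CPM in the knockdown libraries, which lay between the controls (log2 fold change -0.13, 95% interval -0.72 to 0.45, edgeR adjusted p = 0.819). Per kilobase of exon, Lin28a exceeded Lin28b 30.2-fold and 15.8-fold in the controls and 17.5-fold and 11.5-fold in the knockdown libraries, and these ratios overlapped between groups. Exon length here is the union of annotated exons, 3996 bases for Lin28a and 9065 for Lin28b. Their principal transcripts have 3505 and 5402 bases, and with those lengths the ratios would be smaller. The 2 genes shared no 50-base stretch. Lin28a lies on chromosome 4 from 134003330 to 134018841 and Lin28b on chromosome 10 from 45376620 to 45486395, both on the minus strand. Exons of Lin28a overlap a transcript of the opposite strand, Gm13061, over 234 bases, and whether counting used strand is not stated in the sources.

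Genes of the machinery through which LIN28 acts on let-7 were called in 0 of 12 cases, with a median log2 fold change of 0.02 and 2 genes apart in each direction, against 27.3% of all tested genes upwards and 24.6% downwards. The likelihood ratio test called 1 of the 12, Tnrc6b, higher, and DESeq2 called 0. Of all tested genes they called 8.08% and 6.83% in either direction, in that order. Tnrc6b, a microRNA silencing factor gene named after its values were seen, was at 145 and 163 CPM in the controls and 229 and 243 CPM in the knockdown libraries (log2 fold change 0.61, edgeR adjusted p = 0.107). The Argonaute gene Ago2 was at 277 and 251 CPM in the controls and 269 and 302 CPM in the knockdown libraries. Drosha, the nuclear microRNA processing enzyme gene, was at 244 and 195 CPM in the controls and 221 and 202.3 CPM in the knockdown libraries. The genes of the enzymes that LIN28 recruits were named after their values were seen. Zcchc6 (TUT7), a uridylyltransferase gene, differed by 0.51 on the log2 scale (edgeR adjusted p = 0.231) and Zcchc11 (TUT4) by -0.07 (edgeR adjusted p = 0.874). Dis3l2, which encodes the nuclease for uridylated let-7 precursors, differed by -0.42 (edgeR adjusted p = 0.352).

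Known let-7 targets were called in 0 of 20 cases, and their median log2 fold change of 0.04 lay close to the 0.01 of all tested genes. Of the 20, 4 lay apart upwards and 5 downwards (27.3% and 24.6% of all tested genes). DESeq2 and the likelihood ratio test also called 0, against 6.83% and 8.08% of all tested genes. Igf2bp1, an mRNA-binding protein gene with 4 seed matches, was at 605 and 432 CPM in the controls and 721 and 813 CPM in the knockdown libraries (log2 fold change 0.56, edgeR adjusted p = 0.202). Hmga1, a chromatin protein gene with 1 match, was at 529 and 388 CPM in the controls and 367 and 277 CPM in the knockdown libraries (log2 fold change -0.51, edgeR adjusted p = 0.264). Hmga2, a paralog with 4 matches that was named after its values were seen, ranged from 11.8 to 51.8 CPM between the controls and from 35.9 to 73.0 CPM between the knockdown libraries, and its log2 fold change of 0.78 was 2.20 and called without control replicate 1 and 0.02 without control replicate 2. Across all tested genes with a 3′ UTR, the median log2 fold change was 0.03 for the 1299 genes with a seed match, 0.08 for the 448 with the 8-base form and -0.01 for the 12250 with none. In these groups 10 genes were called higher and 7 lower, 5 higher and 2 lower, and 102 higher and 78 lower, in that order.

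Trim71 was at 223 and 132 CPM in the controls and 246 and 208 CPM in the knockdown libraries. Knockdown replicate 2 lay between the controls, so the groups overlapped, and control replicate 2 was the lowest. The log2 fold change was 0.35 (SE 0.26, 95% interval -0.24 to 0.94, edgeR adjusted p = 0.489). It was 0.78 without control replicate 1 and -0.03 without control replicate 2, so its direction rested on which control was kept. The gene lies on chromosome 9 from 114507133 to 114564369 (minus strand), and its exons overlap those of C130032M10Rik on the opposite strand over 135 bases.

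Of 6 mRNAs known to be repressed by TRIM71, 0 were called, with a median log2 fold change of 0.29, 3 genes apart upwards and 2 downwards (27.3% and 24.6% of all tested genes). DESeq2 and the likelihood ratio test called 2 of the 6 higher, Cdkn1a and Rbl2. Of the 16209 genes tested they called 617 and 796 higher, in that order. Cdkn1a, which encodes the cell cycle inhibitor p21 and is also a p53 target, was at 69.7 and 46.4 CPM in the controls and 122 and 205 CPM in the knockdown libraries. The log2 fold change of Cdkn1a was 1.49 (SE 0.29, edgeR adjusted p = 0.0543). DESeq2 called it (adjusted p = 0.000191). With a library left out the log2 fold change ran from 1.07 to 1.81. Among alternatives that kept all 4 libraries, its adjusted p ran from 1.01e-08 with no low-count filter to 0.0641 with DESeq2 size factors in edgeR. The immediate early gene Egr1 was at 106 and 42.4 CPM in the controls and 89.1 and 33.3 CPM in the knockdown libraries, which overlapped. Rbl2 and Rbl1, a pair of retinoblastoma family genes named after their values were seen, lay apart in opposite directions. Rbl2 was at 26.9 and 22.3 CPM in the controls and 43.5 and 43.8 CPM in the knockdown libraries (log2 fold change 0.83, edgeR adjusted p = 0.0904; DESeq2 adjusted p = 0.0297, range over the alternatives 0.0297 to 0.36). Rbl1 was at 32.0 and 31.2 CPM in the controls and 21.5 and 21.2 CPM in the knockdown libraries (log2 fold change -0.57, edgeR adjusted p = 0.198), and no alternative called it.

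L1td1 was the second most abundant of the 9 genes. It was at 796 and 614 CPM in the controls and 692 and 731 CPM in the knockdown libraries, which lay between the controls. The means were 705 ± 128 and 711 ± 28.0 CPM (SD, n = 2 each). The log2 fold change was 0.01 (SE 0.20, 95% interval -0.44 to 0.47, edgeR adjusted p = 0.981). The sign turned with DESeq2, with its size factors, with upper quartile scaling and with no low-count filter. L1td1 lies on chromosome 4 from 98726734 to 98738480 (plus strand), and 1.62% of its 50-base stretches occur in another transcript.

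**Figure D3:**
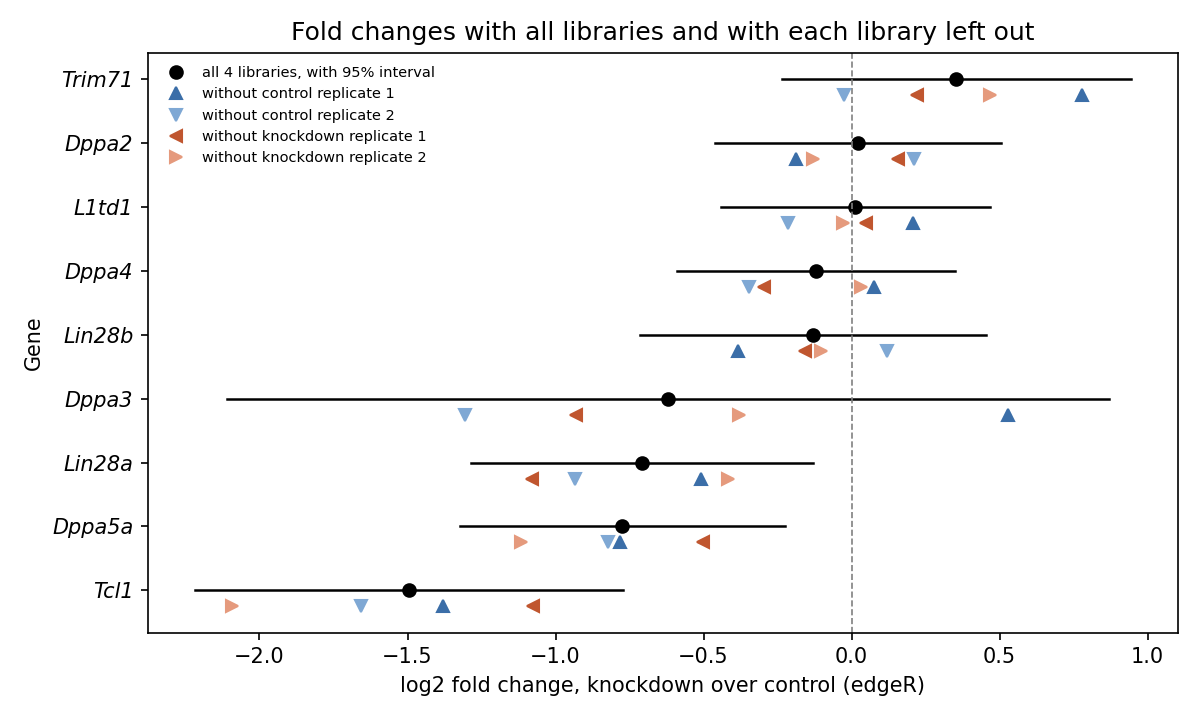
Log2 fold changes from edgeR, knockdown over control, with 95% intervals from all 4 libraries (black) and, just under each, the values with 1 library left out (triangles). Tcl1, Dppa5a and Lin28a stay below 0 in every fit, and the triangles of the other 6 genes fall on both sides of 0.

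Per kilobase of annotated exon, the levels spanned from Dppa5a at 2329 CPM per kilobase in the controls to Dppa3 at 2.60. L1td1 (222) and Dppa4 (111) followed Dppa5a, and in all 4 libraries each of these 3 lay above the next gene. Lin28a, Tcl1 and Dppa2 came next with mean control values of 66.4, 65.9 and 64.3, and their ranges over the libraries overlapped. Trim71, at 19.0, lay below Dppa2 and above Lin28b (3.06) in every library, while Lin28b and Dppa3 overlapped. In the knockdown libraries Tcl1, at 23.4, stood in seventh place instead of the fifth, behind Dppa2 (65.3), Lin28a (40.6) and Trim71 (24.3). Its range of 15.5 to 31.4 there overlapped that of Trim71, 22.3 to 26.3. The exon lengths come from GENCODE M21, and the one behind the counts is not stated.

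The gene with the profile most like each member was found as the smallest Euclidean distance between mean-centred log2 CPM over the 4 libraries, among 11030 other genes averaging 5 CPM or more. For Tcl1 it was Thy1, a surface glycoprotein gene, at 13.3 and 12.9 CPM in the controls and 2.88 and 5.53 CPM in the knockdown libraries. The distance was 0.19 against a median of 1.78 over all genes compared. Arvcf, a catenin family gene, was nearest to Dppa5a (0.08), and the muscarinic receptor gene Chrm4 was nearest to Lin28a (0.06). Their levels were 75.2, 78.9, 35.2 and 57.5 CPM for Arvcf and 10.4, 7.99, 6.54 and 4.32 CPM for Chrm4, in the order control replicates 1 and 2 and knockdown replicates 1 and 2. The nearest genes of the remaining members were Ist1 (Dppa2, 0.02), Dcakd (Dppa4, 0.03), Enpp3 (Dppa3, 0.20), Rnf2 (Lin28b, 0.01), Arhgap23 (Trim71, 0.07) and Gna15 (L1td1, 0.03). With 4 libraries and many genes, close profiles are found for any gene, and these are descriptions only.

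The stem cell identity of the libraries was checked with markers. All 8 embryonic stem cell markers were detected and 0 were called. They summed to 5277 and 4602 CPM in the controls and 4543 and 4882 CPM in the knockdown libraries. Of the 8, 1 lay apart upwards and 0 downwards (27.3% and 24.6% of all tested genes). It was Sall4, named after its values were seen, at 311 and 203 CPM in the controls and 396 and 473 CPM in the knockdown libraries. The log2 fold change of Sall4 was 0.76 (edgeR adjusted p = 0.134). Pou5f1, which encodes OCT4, was at 1256 and 982 CPM in the controls and 902 and 995 CPM in the knockdown libraries. Naive pluripotency factors (10 genes, 0 called, median log2 fold change 0.02) included Esrrb at 907 and 824 against 884 and 1005 CPM and Zfp42 at 1007 and 747 against 827 and 783 CPM, in both cases with overlapping groups. Of the naive factors 0 lay apart in either direction. Formative and primed epiblast genes had 0 of 9 called and a median of 0.00, with 0 apart upwards and 2 downwards. Among the 9, Etv5 was at 711 and 439 against 670 and 556 CPM and Etv4 at 178 and 161 against 128 and 119 CPM.

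Germ cell genes, which Dppa3 is often counted among, summed to 255 and 335 CPM in the controls and 213 and 250.4 CPM in the knockdown libraries. Of 8 tested, 0 were called, 0 lay apart upwards and 2 downwards (27.3% and 24.6% of all tested genes), with a median of -0.21. Kit was at 122 and 169 CPM in the controls against 91.0 and 83.0 CPM in the knockdown libraries, and Dazl at 20.6 and 45.0 against 24.6 and 58.6 CPM. The edgeR adjusted p of Kit was 0.107 (log2 fold change -0.74), and DESeq2 (0.0272), the likelihood ratio test (0.0374), no low-count filter (0.0122) and the fit without control replicate 1 (0.0328) called it, with a range of 0.0122 to 0.497 over the alternatives.

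Markers of endoderm, trophoblast and fibroblasts were low. Endoderm markers summed to 10.0 and 13.7 CPM in the controls and 31.6 and 22.6 CPM in the knockdown libraries, with 4 of 5 tested genes apart upwards (27.3% of all tested genes), 0 called and a median of 1.17. Gata4 was at 5.02 and 4.72 against 15.4 and 6.51 CPM and Gata6 at 1.85 and 2.80 against 8.37 and 5.35 CPM, and Afp was below 0.4 CPM throughout. Gata6 (log2 fold change 1.56, edgeR adjusted p = 0.11) was called by DESeq2 (0.0412), by the likelihood ratio test (0.0317) and with no low-count filter (0.0136), and Gata4 only in the last of these (0.0468). Over the alternatives the adjusted p ran from 0.0136 to 0.4 for Gata6 and from 0.0468 to 0.813 for Gata4. Trophoblast markers summed to 5.76 and 3.63 against 9.37 and 11.2 CPM (4 tested, 0 called, 1 apart upwards, 0 downwards, median 1.02). Gata3 was at 0.48 and 0.47 against 3.14 and 2.80 CPM and Tfap2a at 3.54 and 1.5 against 4.5 and 2.86 CPM. Reads of Gata3 were few: control replicates 1 and 2 held 9 each, while knockdown replicates 1 and 2 held 60 and 46. Whether Gata3 passed the low-count filter through its knockdown level alone was not tested. The fold change and calls of Gata3, and the trophoblast median that includes it, carry this limit. Gata3 (log2 fold change 2.64, edgeR adjusted p = 0.0527) was called by DESeq2 (0.0136), the likelihood ratio test (0.000455), the replicate block (0.0321), no low-count filter (0.000643) and thinning to the shallowest library (0.0495), with a range of 0.000455 to 0.114 over the alternatives. Fibroblast markers summed to 24.99 and 33.1 CPM in the controls and 11.0 and 11.9 CPM in the knockdown libraries. Of 4 tested, 0 were called, 0 lay apart upwards and 2 downwards, with a median of -0.94. Thy1 and Pdgfrb, the latter at 9.51 and 16.5 against 5.28 and 3.65 CPM, made up most of that sum. Thy1 (log2 fold change -1.64, edgeR adjusted p = 0.0793) was called by DESeq2 (0.00333), the likelihood ratio test (0.00777), the replicate block (0.039) and no low-count filter (0.000886). Pdgfrb (log2 fold change -1.54, edgeR adjusted p = 0.0913) was called by DESeq2 (0.00815), the likelihood ratio test (0.0171), no low-count filter (0.00224) and without control replicate 1 (0.046). Their highest adjusted p over the alternatives was 0.224 and 0.32. Postn and Lum were at 0 in every library, and Col1a1 was at 1.76 to 3.16 CPM. Col3a1, Dcn and Twist2 were at 0 except for 1 count each in knockdown replicate 2. Col1a2 went the other way, at 0.05 and 0.57 against 0.47 and 0.73 CPM (log2 fold change 0.92, edgeR adjusted p = 0.626). The fibroblast sum, which is mostly Thy1 and Pdgfrb and so not a measure of fibroblast number, was lower in both knockdown libraries, as Tcl1, Dppa5a and Lin28a were. The endoderm and trophoblast sums were higher in both. Their part in these differences was not tested.

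**Figure D4:**
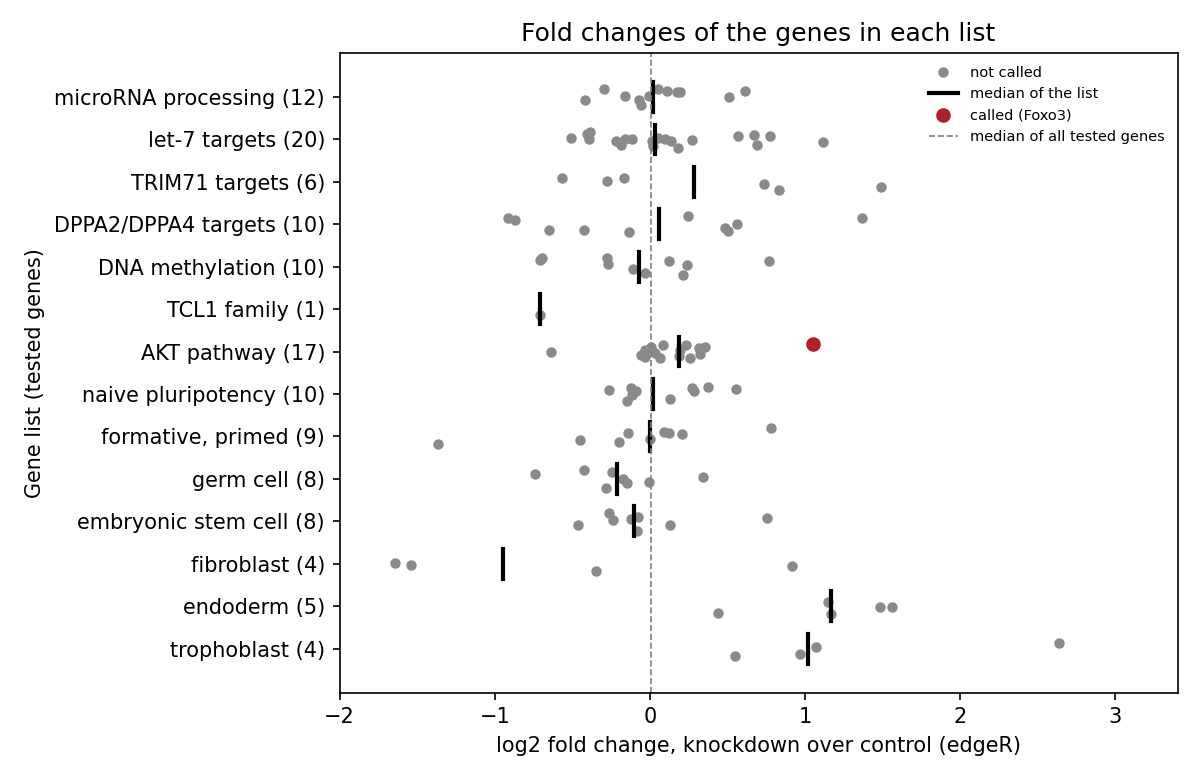
Log2 fold changes from edgeR, knockdown over control, of the tested genes in each list (points), with the number tested in parentheses, the median of each list as a black bar and the median of all tested genes as a dashed line. Foxo3, at 1.05 in the AKT pathway list, is the only called gene.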

How the data were processed

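Libraries (VAHTS mRNA-seq V2 kit) were made from 2 control and 2 knockdown samples. The deposited values are raw counts of reads for each gene, made by the authors per the submitters' processing notes with cutadapt, HISAT2 and featureCounts on mm10; versions, annotation, strand and multi-mapping settings: not given in the sources used here. After 92 spike-in rows at 0 were removed, libraries held 16383323 to 19867689 counts, including 27 rows whose symbols had become dates (0.151% to 0.177%, not named).

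Genes were kept with filterByExpr (16209 of 35976) and scaled by TMM (factors 0.954 to 1.03) in edgeR 4.0.16 under R 4.3.3. The quasi-likelihood test had no term but the group. Standard errors (SE) are the absolute log2 fold change over √F. The biological coefficient of variation was 24.9%, so the number of libraries limits precision except for weakly expressed genes. Counts within each group differed by far more than sampling noise (chi-square per gene 45.6 and 21.3), a spread that may be technical. Each library was entered as 1 replicate, although separate cultures are not stated. Named genes are the 9 members, up to 3 called or else the 2 most abundant genes of each of 14 lists, and the nearest profile of each member. The members and lists were chosen with earlier results of these data known. Alternatives used DESeq2 1.42.0 and limma 3.58.1. GENCODE M21 and RefSeq (GRCm38.p6) gave positions and sequences.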

Additional observations from a re-analysis of the deposited data

How the results depend on the processing

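With 2 libraries a group, single libraries decided most signs. A fit that left out 1 library kept 1 in that group, so its spread came from the other group alone. Leaving out 1 library at a time gave log2 fold changes of -2.09 to -1.08 for Tcl1, -1.12 to -0.50 for Dppa5a, -1.08 to -0.42 for Lin28a, -1.30 to 0.53 for Dppa3, -0.35 to 0.077 for Dppa4, -0.19 to 0.21 for Dppa2, -0.38 to 0.12 for Lin28b, -0.026 to 0.78 for Trim71 and -0.21 to 0.21 for L1td1. Members called were 0 to 1 in these fits, genes called 153 to 587, of which 108 to 389 were higher and 45 to 198 lower.

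With no low-count filter 3 members were called, Tcl1 (-1.51), Dppa5a (-0.79) and Lin28a (-0.72), among 1717 genes (996 higher, 721 lower). That fit tested 26525 genes and gave the lowest adjusted p of Tcl1, Dppa5a, Foxo3, Cdkn1a, Uhrf1 and Dnmt3a. DESeq2 called 2, Tcl1 (-1.52) and Dppa5a (-0.80), among 1107 (617 and 490). The likelihood ratio test called 2, Tcl1 (-1.49) and Dppa5a (-0.77), among 1310 (796 and 514). An adjusted p below 0.01 left 17 genes (11 and 6), and library totals alone gave 57 lower.

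Whether same-numbered libraries were paired is not stated. Their deviations correlated at -0.05 over genes, which does not settle it, because 2 libraries a group give a single deviation per gene. With the replicate block 1 member was called, Tcl1 (-1.57), among 656 genes (428 higher and 228 lower); Zscan4f was at 0.28 and Zscan4c at 0.44.

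Dppa2 was at -0.014 with upper quartile scaling. L1td1 was at -0.012 with DESeq2 size factors and with DESeq2, at -0.018 with upper quartile scaling and at -0.0054 with no filter. With limma-voom Zscan4f was at 0.32 and Zscan4c at 0.48. Of the nearest profiles, Ist1 was at -0.012 with upper quartile scaling, and Gna15 at -0.022 with DESeq2 size factors and DESeq2, at -0.015 with no filter and at -0.028 with upper quartile scaling.

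Without 1 library the medians ran from -0.35 to -0.13 for the members, -0.025 to 0.076 for microRNA processing (-0.0095 with upper quartile scaling and 0.072 with library totals), -0.20 to 0.19 for let-7 targets, 0.24 to 0.60 for TRIM71 targets, -0.60 to 2.56 for DPPA2 and DPPA4 targets, -0.33 to 0.12 for DNA methylation, 0.021 to 0.25 for the AKT pathway, -0.036 to 0.15 for naive, -0.49 to 0.36 for formative, -0.39 to -0.086 for germ cell, -1.11 to -0.62 for fibroblast (-1.53 with 1 CPM in 2 libraries and -1.57 thinned), 1.08 to 1.21 for endoderm, 0.54 to 1.68 for trophoblast and -0.18 to 0.10 for stem cell genes.

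Named genes whose sign turned in such a fit were Ago2 (-0.0062 to 0.19), Drosha (-0.26 to 0.11), Egr1 (-1.17 to 0.53), Zscan4f (-1.84 to 2.44), Zscan4c (-1.57 to 2.51), Trim28 (-0.34 to 0.091), Zfp42 (-0.37 to 0.10), Etv5 (-0.26 to 0.48), Dazl (-0.41 to 0.96), Igf2bp3 (-0.18 to 0.26), Ist1 (-0.18 to 0.21), Dcakd (-0.36 to 0.10), Enpp3 (-1.06 to 0.69), Rnf2 (-0.38 to 0.12) and Gna15 (-0.21 to 0.18). The cause of these changes was not tested.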
